A study of Mus musculus with 8 samples.

Results

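The 10 genes described here supply serine, one-carbon units and amino acids to the cell. They are Phgdh, Psat1 and Psph of serine synthesis, Shmt2, Mthfd2 and Mthfd1l of the mitochondrial folate cycle, Asns of asparagine synthesis, and the transporter genes Slc7a11, Slc7a5 and Slc3a2. They were chosen by symbol, as genes known to be controlled by the transcription factor ATF4, and all 10 were found among the 24421 gene symbols of each count table. Each was measured by polyA RNA-seq in mouse embryonic stem cells grown in 2i/LIF for 3 to 4 passages, in 8 libraries. The Ubc9 comparison set 2 libraries of Ubc9-depleted v6.5 cells, treated with doxycycline (DOX) for 72 h, against 2 libraries of Ubc9 wild-type v6.5 cells. Ubc9 is the SUMO-conjugating enzyme, and SUMO is a small protein that is attached to other proteins. DOX treatment of the Ubc9 controls, and the construct behind the depletion, are not described in the labels. The H1 comparison set 2 libraries of H1 triple knockout (TKO) cells against 2 libraries of H1 wild-type cells, both taken from lines described in an earlier publication. Linker histone H1 binds nucleosomes and the DNA between them. No label tells if paired libraries are separate cultures or 1 clone, so p-values measure the spread between these libraries, which may be technical.

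ATF4 is translated preferentially when eIF2alpha is phosphorylated, as in amino acid shortage or endoplasmic reticulum stress, and it activates genes that make or import amino acids. Serine is built from a glycolytic intermediate by PHGDH, PSAT1 and PSPH, and SHMT2, MTHFD2 and MTHFD1L pass its one-carbon unit through mitochondria towards formate, which feeds purine and thymidylate synthesis. Mouse embryonic stem cells depend strongly on one-carbon metabolism, which they also feed from threonine through the enzyme TDH.

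Library totals ranged from 44441713 to 102780141 counts. Libraries are called by group and label number, and levels are CPM, counts scaled to a fixed library total, on library sizes scaled by edgeR's TMM factors. Ubc9-depleted library 1 stood apart by having counts on 23462 genes, against 18584 to 19591 in the other 3 libraries of its comparison. The SD of the log2 ratio between the libraries of a group was 0.75 for Ubc9-depleted and 0.57 for H1 control, against 0.19 for Ubc9 control and 0.22 for H1 TKO. Hist1h1c, Hist1h1d and Hist1h1e had 0 counts in both H1 TKO libraries, where 3 counts would be 0.0675 and 0.0438 CPM, and 1.64 to 4.48 CPM in the H1 controls. Of all genes tested, 21.1% were called higher and 15% lower after Ubc9 depletion in edgeR, and 8.59% and 8.43% in H1 TKO cells. In fits that left out 1 library the counts over all genes changed widely. Counts called there for the members and the gene lists below are therefore not results about those genes. Among markers of other cell types, 5 of 8 fibroblast genes were called higher after Ubc9 depletion, in edgeR and in DESeq2. Their summed level was 34.8 to 36.7 CPM against 17.8 to 18.0 CPM. Of 6 primitive endoderm genes, 4 were called higher in edgeR and 2 in DESeq2, with 20.4 to 25.9 CPM against 13.1 to 13.3 CPM. In the H1 comparison the fibroblast genes summed to 7.78 to 8.10 CPM in TKO and 12.8 to 21.7 CPM in control libraries, with Postn at 0 in all 4 and 1 of 3 tested genes lower. Primitive endoderm genes summed to 14.6 to 16.7 CPM in TKO against 7.66 to 8.32 CPM, with 1 of 5 tested higher. Trophectoderm genes summed to 70.2 to 81.9 CPM after Ubc9 depletion against 91.7 to 102 CPM (0 of 5 higher, 3 lower), and to 168 to 173 CPM in H1 TKO against 91.2 to 115 CPM (2 higher, 1 lower). Neuroectoderm genes summed to 81.5 to 82.6 CPM against 89.2 to 93.9 CPM, and to 23.2 to 24.6 CPM in H1 TKO against 41.7 to 73.9 CPM, with 1 of 4 lower in each comparison. The 10 embryonic stem cell markers summed to 5269 to 5345 CPM after Ubc9 depletion against 5612 to 5831 CPM. In H1 TKO they summed to 11606 to 11721 CPM against 6391 to 6966 CPM in H1 control. DESeq2 called 0 of them higher and 1 lower after Ubc9 depletion, and 2 higher and 0 lower in H1 TKO. The part of these markers in the results below was not tested, and in bulk RNA fewer cells of a type and less RNA per cell cannot be told apart.

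Promoter sequences from RefSeq on GRCm38.p6 (250 bases before to 50 after the annotated start) were found for 9 of the 10 genes. They are shown for the pair of genes that hold the C/EBP-ATF element, the class of site that ATF4 is known to bind with a C/EBP partner, and for Mthfd2 and Psph, the members with the clearest changes. Capitals mark the letters TGATGNAA or their reverse complement. Asns lies at chr6:7693160-7693459, Slc7a11 at chr3:50443564-50443863, Mthfd2 at chr6:83317555-83317854 and Psph at chr5:129787204-129787503, all on the minus strand.
Asns: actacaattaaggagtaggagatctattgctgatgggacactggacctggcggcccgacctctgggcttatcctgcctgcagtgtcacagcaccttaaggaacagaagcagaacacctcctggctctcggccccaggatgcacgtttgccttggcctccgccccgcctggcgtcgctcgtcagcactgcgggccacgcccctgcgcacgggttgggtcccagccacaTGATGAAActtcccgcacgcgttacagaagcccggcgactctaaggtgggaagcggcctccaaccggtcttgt
Slc7a11: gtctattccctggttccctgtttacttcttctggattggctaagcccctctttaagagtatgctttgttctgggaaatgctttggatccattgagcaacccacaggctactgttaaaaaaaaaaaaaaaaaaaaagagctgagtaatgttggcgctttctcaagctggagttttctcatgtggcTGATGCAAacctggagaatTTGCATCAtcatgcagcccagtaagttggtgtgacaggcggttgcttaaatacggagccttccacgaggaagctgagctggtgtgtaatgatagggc
Mthfd2: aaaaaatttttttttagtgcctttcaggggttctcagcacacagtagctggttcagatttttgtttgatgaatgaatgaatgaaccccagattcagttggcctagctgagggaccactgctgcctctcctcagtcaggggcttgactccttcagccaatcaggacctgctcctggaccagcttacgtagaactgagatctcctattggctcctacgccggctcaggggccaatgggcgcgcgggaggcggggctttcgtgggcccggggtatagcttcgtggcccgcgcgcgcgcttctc
Psph: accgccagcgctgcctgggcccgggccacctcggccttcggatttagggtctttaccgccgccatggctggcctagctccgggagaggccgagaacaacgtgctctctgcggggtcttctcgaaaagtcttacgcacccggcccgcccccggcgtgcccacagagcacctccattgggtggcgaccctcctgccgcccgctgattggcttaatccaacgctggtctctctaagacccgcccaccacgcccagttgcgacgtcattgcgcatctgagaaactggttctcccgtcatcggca
The element began 23 bases before the start of Asns. Slc7a11 held 2 copies, 66 and 47 bases before the start, the second on the opposite strand. Among all 32851 promoters of the table, on both strands, 3.97% held it. The CCAAT box (CCAAT, in 37.4% of all promoters) was found in Mthfd2, Phgdh, Psat1, Psph and Slc7a11. The antioxidant response element core (TGACNNNGC, in 12.4%) was found in Asns, Phgdh and Psph. The E-box CACGTG (in 7.15%) was in 0 of the 9 promoters. Matches of different motifs did not overlap in these promoters, and a match is a description of the letters only.

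Levels per kilobase of exon differed widely between the members. Asns, which makes asparagine from aspartate, was the most abundant in all 4 groups, at 347 ± 26.3 CPM per kb (SD, n = 2) in Ubc9 control and 1020.0 ± 103 CPM per kb in H1 control. Slc7a11, the cystine carrier of system xc-, was the lowest in all 4, at 0.0836 ± 0.0252 and 0.315 ± 0.124 CPM per kb in the same groups. In Ubc9 control cells Slc7a5 (42.6 ± 0.0483 CPM per kb) and Slc3a2 (42.3 ± 2.54) did not differ beyond their spread. Psat1 followed at 29.9 ± 2.09 CPM per kb, Shmt2 at 25.3 ± 1.97 and Mthfd1l at 24.5 ± 1.51, the last pair within their spread. Mthfd2 stood at 18.9 ± 0.463 CPM per kb, and Phgdh (7.53 ± 0.497) and Psph (6.84 ± 0.610) were again within their spread. The order in H1 control cells was Slc7a5 at 148 ± 51.4 CPM per kb, Psat1 at 118 ± 14.6, Slc3a2 at 83.4 ± 14.0, Shmt2 at 75.4 ± 26.7, Mthfd2 at 49.1 ± 3.69, Phgdh at 38.5 ± 4.47, Mthfd1l at 20.9 ± 1.07 and Psph at 14.2 ± 2.63. In H1 TKO cells Mthfd2 was at rank 9 of 10, at 11.8 ± 0.111 CPM per kb, below Psph (20.5 ± 0.525) and Mthfd1l (17.5 ± 0.396). The 2 comparisons used different library kits and lines, so levels are not compared between them.

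**Figure D1:**
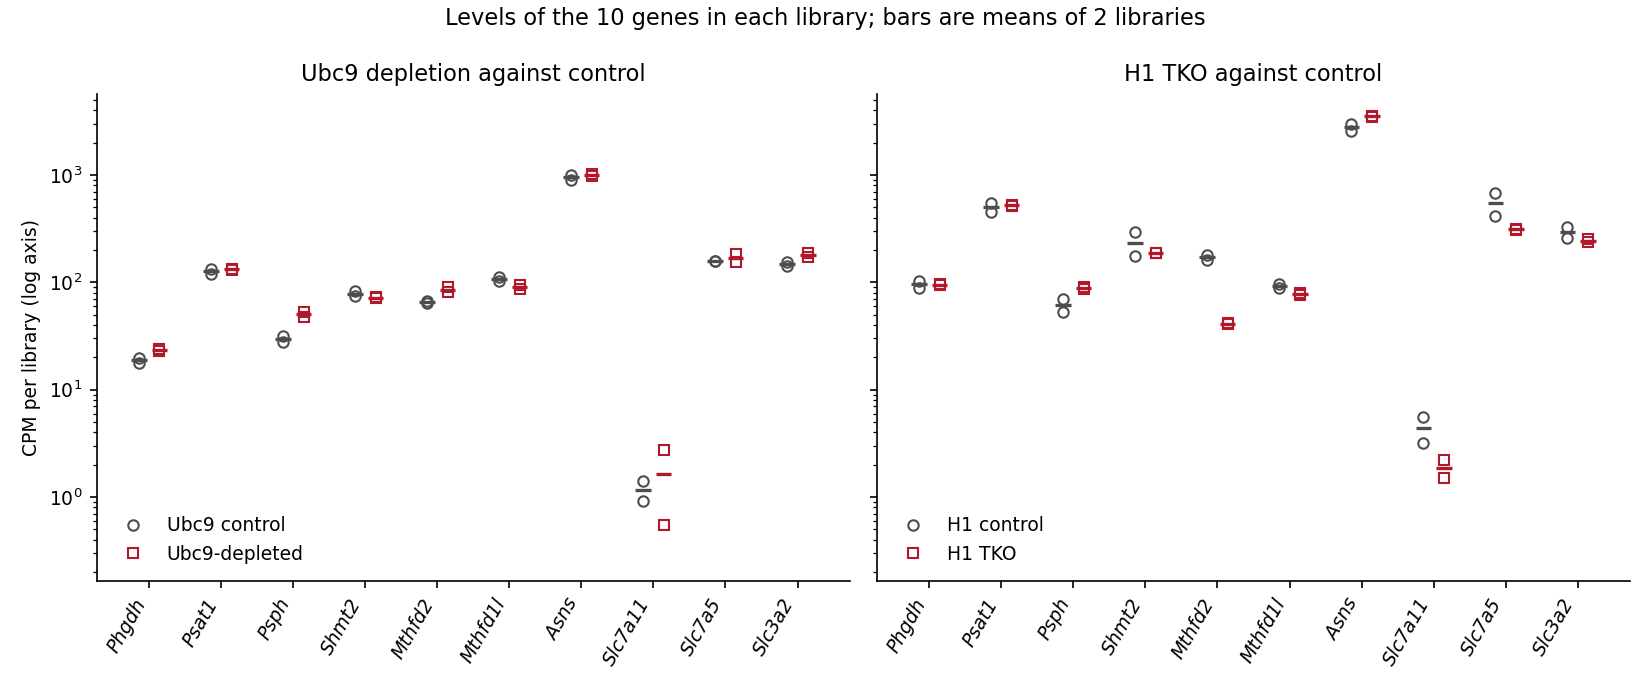
CPM (log axis) of the 10 genes in each library, Ubc9 comparison on the left and H1 comparison on the right; symbols are single libraries and bars the means of 2. Mthfd2 separates in the H1 panel, at 41.4 and 40.9 CPM in TKO against 162 and 180 CPM in control, and Psph is the clearest separation in the Ubc9 panel.

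Depletion of Ubc9 was followed by higher transcript levels of 3 of the 10 genes, Psph, Mthfd2 and Phgdh, and by lower levels of 0, at an adjusted p under 0.05 in edgeR's quasi-likelihood test with Benjamini-Hochberg adjustment over 16499 genes. Across all genes tested, 21.1% were called higher and 15% lower, so 3 of 10 is close to the background. The median log2 fold change of the 10 was 0.18, against 0.06 for all genes. Psph rose the most, and Asns, the most abundant member, was not called. Fewer members were called higher without either Ubc9 control library or without depleted library 2, and more without depleted library 1. Members were also called lower in such fits. These were Slc7a11 without depleted library 1, at a log2 value of -1.08, and Mthfd1l without depleted library 2, at -0.40. At an unadjusted p under 0.05 in edgeR, 4 were higher and 1, Mthfd1l, lower. DESeq2 called 1 higher and 0 lower, whereas 7 were called higher with library totals alone, under which the median of all genes was 0.25.

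Psph encodes phosphoserine phosphatase, the last enzyme of serine synthesis. Its level was 47.9 and 53.3 CPM in the depleted libraries and 27.7 and 31.5 CPM in the controls. Both depleted libraries were above both controls. The log2 fold change was 0.77 ± 0.11 (SE), or 1.71-fold (adjusted p = 4.3e-06, edgeR quasi-likelihood test), with a 95% interval of 0.54 to 1.01. It was called in each of the 4 fits that left out 1 library, where it ranged from 0.62 to 0.84. With offsets for GC content smoothed over all genes it was 0.41 (adjusted p = 0.21 in edgeR), and the median of all genes was then -0.34. With offsets from genes of at least 5 CPM, 3 members were again called higher.

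Phgdh encodes the dehydrogenase that catalyses the first step of serine synthesis. It was at 22.8 and 23.7 CPM after depletion and at 19.6 and 17.8 CPM in controls, without overlap. Its log2 fold change was 0.31 ± 0.11 (edgeR adjusted p = 0.024), but -0.09 under GC offsets smoothed over all genes, where the median of all genes was -0.34. The call was kept only without depleted library 1 among the fits leaving out 1 library. Adjusted p was 0.16 without control library 1, 0.53 without control library 2 and 0.17 without depleted library 2 in edgeR, and 0.29 in DESeq2. It was 0.053 with RLE factors, 0.052 without a filter and 0.23 with all 8 libraries in 1 fit, in edgeR. Psat1, the transaminase between those steps, was at 131 and 134 CPM after depletion and 121 and 133 CPM in controls, and its log2 value was 0.06 ± 0.12 (edgeR adjusted p = 0.72). The Psat1 values of the 2 groups overlapped, with depleted library 1 below control library 2.

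Among the mitochondrial folate enzymes, Mthfd2, a dehydrogenase and cyclohydrolase, was at 80.8 and 90.2 CPM after depletion and at 66.9 and 64.6 CPM in controls. Both depleted libraries were above both controls, and the log2 fold change was 0.38 ± 0.12, or 1.30-fold (edgeR adjusted p = 0.012). The call was lost without control library 1 (adjusted p = 0.32), control library 2 (0.46) or depleted library 2 (0.088) in edgeR, with all 8 libraries in 1 fit (0.15), and in DESeq2 (0.069). With GC offsets smoothed over all genes the value was 0.018 (edgeR adjusted p = 0.97), against a median of all genes of -0.34. Shmt2, which moves the one-carbon unit from serine to folate, was at 71.6 and 72.4 CPM against 83.0 and 74.3 CPM. Mthfd1l, the synthetase that releases formate, was at 87.1 and 95.4 CPM against 113 and 104 CPM. Depleted libraries lay below controls for both, with log2 values of -0.13 ± 0.12 (edgeR adjusted p = 0.40) and -0.25 ± 0.12 (0.099). Mthfd1l was called lower without depleted library 2, at a log2 value of -0.40 (edgeR adjusted p = 0.0045).

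Asns stood at 987 and 1029.7 CPM after depletion and at 898 and 1000.4 CPM in controls. The groups overlapped, and the log2 value was 0.09 ± 0.13 with a 95% interval of -0.18 to 0.35 (edgeR adjusted p = 0.63). Slc3a2, the heavy chain that both light-chain carriers pair with, was at 171 and 189 CPM against 156 and 143 CPM. These groups did not overlap, and the log2 value of 0.27 ± 0.12 missed the threshold (edgeR adjusted p = 0.090), but passed it without depleted library 1 at 0.33 (0.011). Slc7a5, a carrier of large neutral amino acids, was at 154 and 182 CPM against 158 and 158 CPM, with the control libraries between the depleted ones (log2 value 0.09 ± 0.13).

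Slc7a11 was measured on few reads in the Ubc9 comparison, with 275 and 42 counts after depletion and 89 and 130 counts in controls. Its levels were 2.75 and 0.55 CPM against 0.92 and 1.41 CPM. The 2 depleted libraries lay on either side of both controls, and the log2 value was 0.51 ± 0.58 (edgeR adjusted p = 0.52). It was -1.08 without depleted library 1 (adjusted p = 0.022 in edgeR) and 1.16 without depleted library 2 (0.0014). Its direction was therefore set by which depleted library was kept.

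**Figure D2:**
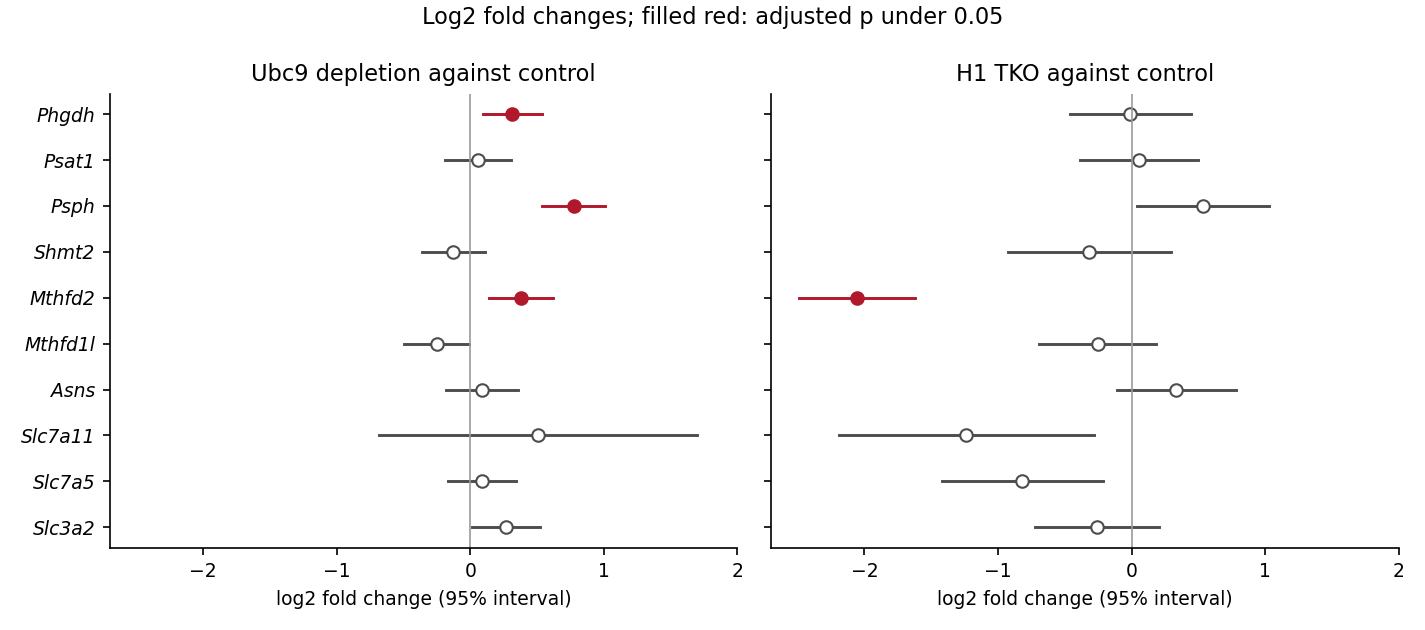
Log2 fold changes of the 10 genes with 95% intervals in the Ubc9 comparison (left) and the H1 comparison (right); filled red points had an adjusted p under 0.05 in edgeR's quasi-likelihood test. Psph at 0.77, Mthfd2 at 0.38 and Phgdh at 0.31 are red on the left, and Mthfd2 at -2.06 is the only red point on the right.

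In H1 TKO cells 1 of the 10 genes was called lower, Mthfd2, at 4.16-fold below its control level, and 0 were called higher. In edgeR's quasi-likelihood test over 14800 genes, 8.43% of all genes were called lower and 8.59% higher. The median log2 fold change of the 10 was -0.26, against -0.02 for all genes. Of the serine synthesis genes, Psph lay above control in both libraries, and Phgdh and Psat1 overlapped with it. The median of the 10 was -0.31 without H1 control library 1 and 0.0058 without H1 control library 2. Without TKO library 1 and 2 it was -0.31 and -0.23. At an unadjusted p under 0.05 in edgeR, 1 member (Psph) was higher and 3 were lower, and DESeq2 called 0 higher and 3 lower.

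Mthfd2 was at 41.4 and 40.9 CPM in the TKO libraries and at 162 and 180 CPM in the controls, on 1815 to 9874 counts. The groups were far apart, and libraries within a group were close. The log2 fold change was -2.06 ± 0.19, or 4.16-fold lower, with a 95% interval of -2.49 to -1.62 (edgeR adjusted p = 0.0011). It was called in all 4 fits that left out 1 library, between -2.13 and -1.98.

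Mthfd2 lies on chromosome 6 (83305691 to 83325908, minus strand, GRCm38), and much of that chromosome was low in H1 TKO cells. Of 700 chromosome 6 genes tested, 190 (27.1%) were called lower and 50 higher, with a median log2 fold change of -0.44. Of 20 chromosomes, chromosome 8 had the lowest median (-0.53) and chromosome 6 followed it, and the next, X, was at -0.09. Around Mthfd2 the low values were dense: within 1 Mb, 26 of the 39 other genes tested were called lower and 1 higher, with a median of -1.47. Within 10 Mb, 83 of 131 were called lower and 2 higher, with a median of -1.40. Against these medians Mthfd2 was lower by a log2 value of -0.59 and -0.66, and 8 of the 39 and 23 of the 131 neighbours were lower than it.

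Steps of 10 Mb along the chromosome were drawn after the values were seen. From 20 to 10 Mb before its start the median of 44 genes was 0.11, with 2 called lower. It was -1.47 in the next 10 Mb up to Mthfd2 (20 of 29 lower). In that step Reg2, Gm20362 and Gm20594, at distances of -4.93 to -3.51 Mb, were not called (-0.48, -0.13 and 0.30). Gcfc2, the next tested gene towards Mthfd2, lay at -1.40 Mb and was called lower (-2.65), so the step's low values began only there. The median was -1.37 from the start to 10 Mb beyond (64 of 103, Mthfd2 included), -1.15 from 10 to 20 Mb (11 of 22) and -0.91 from 20 to 30 Mb (7 of 20). From 30 to 40 Mb it was -0.24, with 17 of 92 lower. Away from this stretch, 2 further steps were low, at -0.80 from 50 to 40 Mb before the start (20 of 53 lower) and at -0.52 from 50 to 60 Mb beyond it (11 of 43), and the remaining steps had medians of -0.40 to 0.11. The nearest neighbours, named after their values were seen, were Mob1a, which begins 0.108 kb from the Mthfd2 start in GENCODE, and Bola3, 23.2 kb away. That start, at 83325908, is not the RefSeq start of the promoter printed above, which covers 83317555 to 83317854. Mob1a was at 25.6 and 20.4 CPM against 119 and 66.1 CPM (log2 -2.01 ± 0.30), and Bola3 at 21.4 and 19.2 CPM against 51.6 and 55.3 CPM (-1.40 ± 0.20). Both were called lower in edgeR, with adjusted p of 0.0066 and 0.0051. In the Ubc9 comparison the median was -0.03 within 1 Mb of Mthfd2 and 0.09 within 10 Mb. Within 1 Mb, 10 of 39 other genes were called lower and 4 higher there. Within 10 Mb, 29 of 151 were lower and 31 higher, beside 15% and 21.1% of all genes. What made this stretch low in the H1 TKO lines, DNA copy number included, was not tested.

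**Figure D3:**
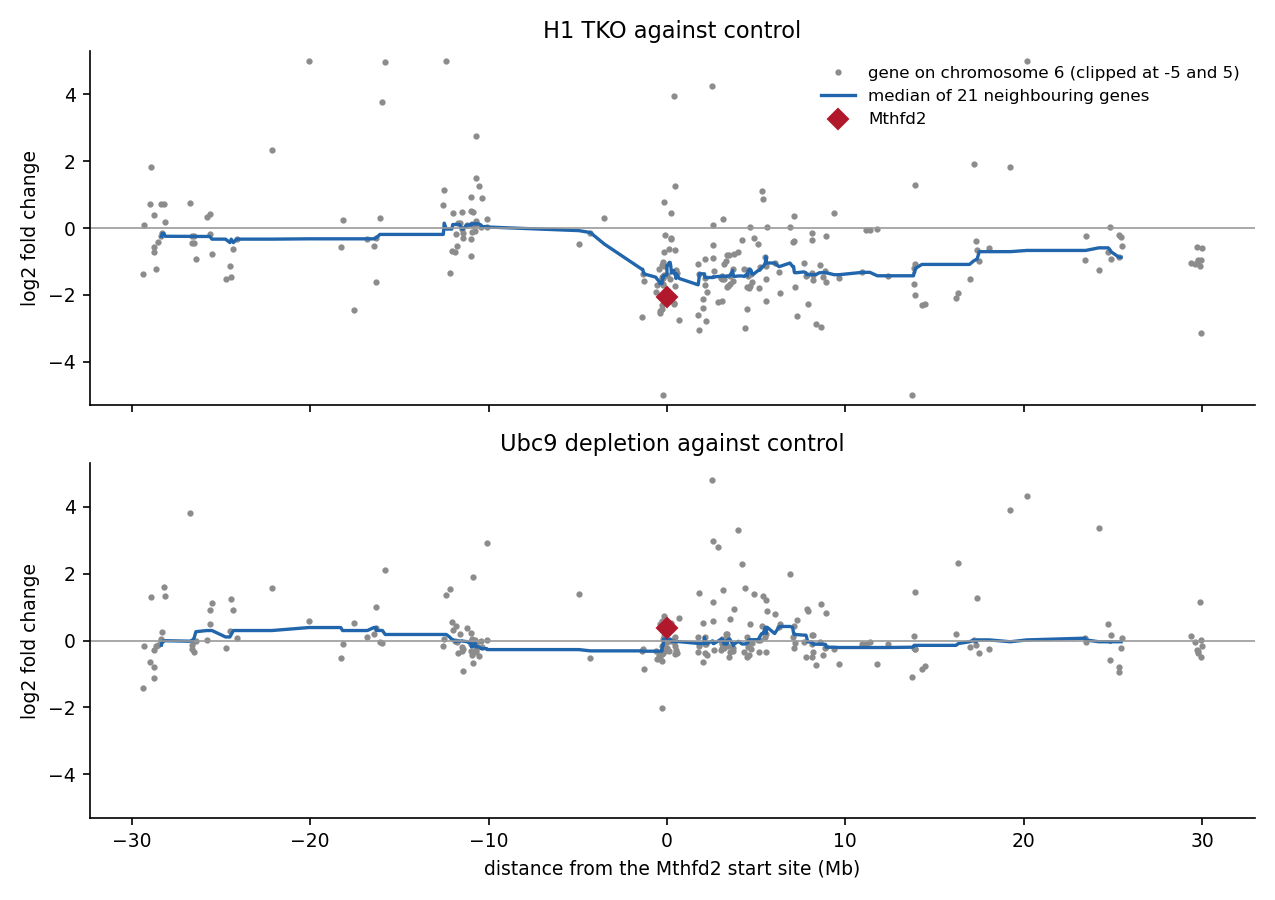
Log2 fold change of each tested chromosome 6 gene by distance from the Mthfd2 start in Mb, H1 comparison above and Ubc9 comparison below, with values beyond -5 and 5 drawn at those limits. The line is the median of 21 neighbouring genes, which falls around Mthfd2 (diamond) in the H1 panel, where the median within 10 Mb was -1.40. In the Ubc9 panel the median within 10 Mb was 0.09, and that of the drawn genes in the 10 Mb before Mthfd2 was -0.24.

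Asns lies on the same chromosome, at 7675169 to 7693254, outside that stretch. It was at 3465 and 3577 CPM in TKO and at 2590.3 and 2989 CPM in control libraries. Both TKO libraries were above both controls, but the log2 value of 0.34 ± 0.19 was not called (edgeR adjusted p = 0.27). The median of the 37 other genes within 10 Mb of Asns was -0.29, so Asns stood 0.63 above its neighbours on the log2 scale. Without H1 control library 2 it was called, at 0.44 (edgeR adjusted p = 5.5e-04).

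The 3 serine synthesis genes gave different pictures in H1 TKO cells. Psph was at 90.4 and 87.1 CPM in TKO and at 53.4 and 69.4 CPM in control libraries. The groups did not overlap, and the log2 value was 0.53 ± 0.21 (edgeR adjusted p = 0.13), called without H1 control library 1 (0.36) and without H1 control library 2 (0.73). Phgdh was at 96.0 and 94.0 CPM against 87.8 and 103 CPM, with the TKO libraries between the controls and a log2 value of -0.01 ± 0.19. The 95% interval for Phgdh ran from -0.46 to 0.44, so changes within that range in either direction are compatible with these libraries. Psat1 was likewise between its controls, at 514 and 529 CPM against 457 and 545 CPM (log2 value 0.06 ± 0.19).

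The other mitochondrial folate enzymes were not called in H1 TKO cells. Shmt2 was at 187 and 189 CPM in TKO and at 176 and 293 CPM in control libraries, so that the TKO values lay between controls that differed widely. Its log2 value of -0.32 ± 0.26 (edgeR adjusted p = 0.45) became -0.64, and was called, without H1 control library 1, and was 0.09 without H1 control library 2. Mthfd1l was at 79.1 and 76.6 CPM against 96.2 and 89.5 CPM, below both controls, with a log2 value of -0.26 ± 0.19 (edgeR adjusted p = 0.39), and it was called at -0.31 without H1 control library 2.

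The 3 transporter genes did not pass the threshold in H1 TKO cells. Slc7a5 was at 316 and 308 CPM against 416 and 685 CPM, a log2 value of -0.82 ± 0.26 (edgeR adjusted p = 0.071). It lies on chromosome 8, whose median was the lowest, and it was -0.30 relative to the median of the 132 other genes within 10 Mb. Within 1 Mb the median of the 25 other genes was -0.35, with 0 called lower and 1 higher. Slc7a5 was called lower without H1 control library 1 (-1.13) and without H1 control library 2 (-0.42), and in DESeq2 (-0.81, adjusted p = 0.019). Slc7a11 lies on chromosome 3, where the median of the 56 other genes within 10 Mb was 0.22. It was at 1.51 and 2.20 CPM against 5.60 and 3.16 CPM, on 66 to 341 counts. Its log2 value was -1.24 ± 0.41 (edgeR adjusted p = 0.082), and it was called at -1.59 without H1 control library 2 and at -1.24 in DESeq2 (adjusted p = 0.044). Slc3a2, whose product pairs with both carriers, was at 251 and 240 CPM against 259 and 329 CPM. Its log2 value was -0.26 ± 0.20 (edgeR adjusted p = 0.41), called at -0.42 without H1 control library 1.

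The difference between the Ubc9 effect and the H1 TKO effect was tested as an interaction over all 8 libraries and 16974 genes. Of all genes, 8.08% had a higher value after Ubc9 depletion than in H1 TKO cells and 6.43% a lower one. Mthfd2 was the 1 member called, with a difference of 2.42 ± 0.22 on the log2 scale (95% interval 1.94 to 2.89, edgeR adjusted p = 8.6e-05). It was called in every fit run, and it was 2.27 to 2.51 when 1 library was left out. Slc7a5 (0.89 ± 0.30, adjusted p = 0.078), Slc3a2 (0.51 ± 0.24, 0.18) and Slc7a11 (1.73 ± 0.88, 0.22) had positive differences that were not called in edgeR. For Phgdh, Psat1, Psph, Shmt2, Mthfd1l and Asns the differences ranged from -0.27 to 0.30. The number called was 3 without H1 control library 1, 2 without H1 control library 2 and 2 without Ubc9-depleted library 2. Kit and parent line differ between the comparisons and cannot be told apart from the treatments here.

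Of 16 genes around ATF4 (Atf4, partners and feedback regulators), 8 were called higher and 0 lower after Ubc9 depletion in edgeR, beside 21.1% and 15% of all genes, with a median log2 fold change of 0.34. With GC offsets smoothed over all genes, 2 were higher and 1 lower, and the list's median turned to -0.066 beside -0.34 for all genes. With all 8 libraries in 1 fit, 2 were higher and 0 lower. Without adjustment, at p under 0.05, 11 were higher and 1 lower, and DESeq2 called 3 and 0. Ddit3, which encodes the stress factor CHOP, was at 29.3 and 33.0 CPM after depletion against 15.5 and 16.2 CPM (0.98 ± 0.11). Atf3, a stress-induced transcription factor, was at 7.61 and 6.38 CPM against 2.23 and 2.27 CPM (1.64 ± 0.22). Cebpb, a C/EBP partner of ATF4, had a log2 fold change of 1.33 ± 0.30, and Ddit4, an inhibitor of mTORC1 signalling, of 0.50 ± 0.11. Atf4 transcripts were at 314 and 348 CPM against 373 and 360 CPM, below both controls and not called (-0.15 ± 0.13, edgeR adjusted p = 0.39). ATF4 is controlled largely at translation, which these data do not measure. The count called higher was 3 without Ubc9 control library 1, 3 without control library 2, 8 without depleted library 1 and 6 (with 2 lower) without depleted library 2. The fibroblast and primitive endoderm marker sums given above were higher in the same libraries.

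The same 16 genes gave, in H1 TKO cells, 0 called higher and 3 lower, beside 8.59% and 8.43% of all genes. Their median was -0.34, against -0.02 for all genes. Of the 16, 1 was higher and 6 lower at an unadjusted p under 0.05 in edgeR, and DESeq2 called 1 and 5. Those lower were Vldlr, a lipoprotein receptor gene (-1.44 ± 0.28), Nupr1, a stress-induced chromatin protein gene (-0.91 ± 0.21), and Stc2, which encodes a secreted glycoprotein (-1.41 ± 0.33). Atf4 was at 446 and 462 CPM against 505 and 562 CPM, not called (-0.23 ± 0.18, edgeR adjusted p = 0.42). The counts were 1 higher and 9 lower without H1 control library 1, 5 and 6 without H1 control library 2, and 0 and 0 without either TKO library. Of 7 genes for eIF2alpha kinases and initiation factors, Eif2b5, a subunit of the exchange factor eIF2B, rose (1.16 ± 0.20). Eif2ak3, the endoplasmic reticulum kinase PERK, rose as well (1.13 ± 0.20). It lies on chromosome 6, at -12.5 Mb from the Mthfd2 start and outside the low stretch. Eif2ak2, the kinase PKR, fell (-1.88 ± 0.38). After Ubc9 depletion, where 21.1% of all genes were called higher and 15% lower, 0 of these 7 rose and 2 fell. They were Eif2ak4, the amino acid sensor GCN2 (-0.42 ± 0.11), and Eif2b5 (-0.35 ± 0.13). The counts were again 0 and 2 at an unadjusted p under 0.05 in edgeR and in DESeq2. The number that fell was 0 without either Ubc9 control library, 1 without depleted library 1 and 6 without depleted library 2. The H1 TKO counts were 3 higher and 2 lower without H1 control library 1, 2 and 3 without H1 control library 2, and 0 higher and 1 lower without either TKO library.

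The other genes of the folate cycle and of one-carbon use were split after Ubc9 depletion. Of 24, 3 were called higher and 8 lower, beside 21.1% and 15% of all genes, with a median of -0.15. With library totals alone the balance turned to 6 higher and 2 lower, with a median of 0.045 beside 0.25 for all genes, and with all 8 libraries in 1 fit 2 were higher and 2 lower. Aldh1l2, the mitochondrial formyltetrahydrofolate dehydrogenase, was at 14.3 and 13.3 CPM against 5.96 and 5.45 CPM (1.28 ± 0.13). Mthfd2l, the paralog of Mthfd2, was at 4.64 and 3.59 CPM against 1.05 and 0.93 CPM (2.05 ± 0.32). Both were called in all 4 fits leaving out 1 library. Mat2a, which makes S-adenosylmethionine (-0.68 ± 0.12), Shmt1, the cytosolic counterpart of Shmt2 (-0.59 ± 0.12), and Mat2b, the regulatory partner of MAT2A (-0.51 ± 0.12), were lower. The numbers higher and lower were 2 and 2 without Ubc9 control library 1, 2 and 1 without control library 2, 4 and 5 without depleted library 1, and 2 and 11 without depleted library 2. Of 6 purine synthesis genes, 4 were lower and 0 higher, with a median of -0.39: Ppat, the entry enzyme, at 174 and 188 CPM against 257 and 296 CPM (-0.61 ± 0.13), Atic (-0.60 ± 0.12), Paics (-0.45 ± 0.13) and Pfas (-0.33 ± 0.12). The purine counts were again 0 and 4 at an unadjusted p under 0.05 in edgeR and in DESeq2. With all 8 libraries in 1 fit 0 were higher and 1 lower. The number lower was 0 without either Ubc9 control library, 3 without depleted library 1 and 6 without depleted library 2.

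Of the same 24 folate genes, 0 were called higher and 2 lower in H1 TKO cells. Of all genes, 8.43% were lower. The pair was Aldh1l1, the cytosolic formyltetrahydrofolate dehydrogenase, at 6.16 and 5.25 CPM against 16.1 and 22.9 CPM (-1.77 ± 0.26), and Gcsh, of the glycine cleavage system (-0.73 ± 0.19). Aldh1l1 lies on chromosome 6, 7.16 Mb from the Mthfd2 start and inside the low stretch described above, and Gcsh lies on chromosome 8, whose median was the lowest. At an unadjusted p under 0.05 in edgeR, 0 folate genes were higher and 4 lower, and DESeq2 called 0 and 2. Pfas was the 1 purine gene of 6 called, at -0.72 ± 0.18. The folate counts were 3 higher and 7 lower without H1 control library 1, 5 and 6 without H1 control library 2, and 0 and 1 without either TKO library. The lower purine genes numbered 3, 2, 0 and 0 in the same fits, taking the TKO libraries last.

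Of 20 other amino acid transporter genes, 19 were tested in the Ubc9 comparison, with 5 called higher, 3 lower and a median of 0.11. These shares are close to the 21.1% and 15% of all genes. Slc1a4, a carrier of serine and other small neutral amino acids, was at 29.4 and 31.2 CPM against 16.4 and 17.1 CPM (0.85 ± 0.11). Slc38a2, the system A carrier induced by amino acid shortage, was at 80.0 and 97.6 CPM against 159 and 187 CPM (-0.96 ± 0.13). Slc7a7, a light chain that also pairs with SLC3A2, rose (1.03 ± 0.21), as did Slc43a1, a carrier of large neutral amino acids (0.65 ± 0.14). DESeq2 called 2 higher and 2 lower. With GC offsets smoothed over all genes, 2 were higher and 4 lower, with a median of -0.28. The numbers higher and lower were 3 and 2 without Ubc9 control library 1, 2 and 1 without control library 2, 6 and 3 without depleted library 1, and 8 and 5 without depleted library 2. The H1 comparison tested 18, with 1 higher, 4 lower and a median of -0.37. Slc38a2 was at 97.1 and 93.0 CPM against 245 and 187 CPM (-1.18 ± 0.21). Slc7a7 (-1.24 ± 0.23), the glutamine carrier gene Slc1a5 (-0.85 ± 0.18) and Slc7a6, another partner of SLC3A2 (-0.82 ± 0.19), were also lower, and Slc36a1 was higher (0.74 ± 0.20). Slc7a6 lies on chromosome 8, and 8.43% of all genes were lower and 8.59% higher. The list's median was -0.39 and -0.36 without H1 control library 1 and 2, and -0.40 and -0.41 without TKO library 1 and 2.

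Genes of other amino acid synthesis and use gave 2 higher and 7 lower of 17 after Ubc9 depletion, beside 21.1% and 15% of all genes, with a median of -0.20. With library totals alone 4 were higher and 5 lower, and with all 8 libraries in 1 fit 0 and 3. Gclm, a subunit of glutamate-cysteine ligase (-0.73 ± 0.11), and Oat, ornithine aminotransferase (-0.66 ± 0.12), fell, and Glul, glutamine synthetase, rose (0.53 ± 0.12). The numbers were 0 and 4 without Ubc9 control library 1, 0 and 6 without control library 2, 2 and 8 without depleted library 1, and 2 and 9 without depleted library 2. In H1 TKO cells, where 8.59% of all genes were higher and 8.43% lower, 2 of the 17 were higher and 2 lower. Those higher were Cth, which makes cysteine (1.22 ± 0.18), and Glul (0.96 ± 0.20). Those lower were Oat (-1.05 ± 0.18) and Got1, aspartate aminotransferase (-0.96 ± 0.18). The list's median was -0.28 and -0.053 without H1 control library 1 and 2, and -0.14 without either TKO library.

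Slc7a11 is also a known target of the antioxidant factor NRF2. Of 10 other NRF2 targets, 7 were called lower and 0 higher after Ubc9 depletion, beside 15% and 21.1% of all genes, with a median of -0.62. Without adjustment, 8 were lower and 0 higher at p under 0.05 in edgeR, and DESeq2 called 7 and 0. Pgd, of the pentose phosphate pathway, was at 88.1 and 89.9 CPM against 187 and 176 CPM (-1.03 ± 0.12). Srxn1, sulfiredoxin (-0.95 ± 0.11), Nqo1, a quinone reductase (-0.87 ± 0.11), and Gsr, glutathione reductase (-0.70 ± 0.12), fell as well. The count was 5 without Ubc9 control library 1, 4 without control library 2, 7 without depleted library 1 and 10 without depleted library 2. H1 TKO cells had 3 of 10 lower and 0 higher, beside 8.43% and 8.59% of all genes. They were Me1 (-1.18 ± 0.21), Nqo1 (-0.92 ± 0.18) and Gsr (-0.71 ± 0.18), and Nqo1 and Gsr lie on chromosome 8. At an unadjusted p under 0.05 in edgeR, 4 were lower and 0 higher, and DESeq2 called 3 and 0. The lower genes numbered 8 without H1 control library 1, 3 without H1 control library 2 and 0 without either TKO library.

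The cytosolic aminoacyl-tRNA synthetases, many of which ATF4 is known to activate, were mostly not called. Of 20, 0 were higher and 1 lower after Ubc9 depletion, Qars (-0.33 ± 0.13), beside 21.1% and 15% of all genes. In H1 TKO cells 0 were called in either direction in edgeR, beside 8.59% higher and 8.43% lower of all genes. At an unadjusted p under 0.05 in edgeR, 0 were higher and 6 lower after Ubc9 depletion, and 1 was higher and 1 lower in H1 TKO cells. DESeq2 gave 0 higher and 4 lower after Ubc9 depletion, and 0 in either direction in H1 TKO cells. Library totals alone gave 5 higher and 0 lower after Ubc9 depletion. The list's median after Ubc9 depletion, -0.11 with all 4 libraries, was -0.29 without depleted library 2 and -0.0085 without depleted library 1. It was -0.11 and -0.15 without Ubc9 control library 1 and 2. In H1 TKO cells it was 0.044 and -0.093 without H1 control library 1 and 2. Of 12 tested genes of amino acid sensing to mTORC1, Nprl3 (0.52 ± 0.15) and Sesn3 (0.40 ± 0.11) rose and Rragd fell (-0.79 ± 0.12) after Ubc9 depletion. Sesn3 also rose in H1 TKO cells (0.86 ± 0.21). The numbers of these 12 that rose are close to the shares of all genes given above. Without either Ubc9 control library 0 were higher and 1 lower, and without depleted library 2, 2 and 4. Without H1 control library 1 the counts were 3 and 3, without H1 control library 2 they were 4 and 4, and without either TKO library 0 and 0.

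**Figure D4:**
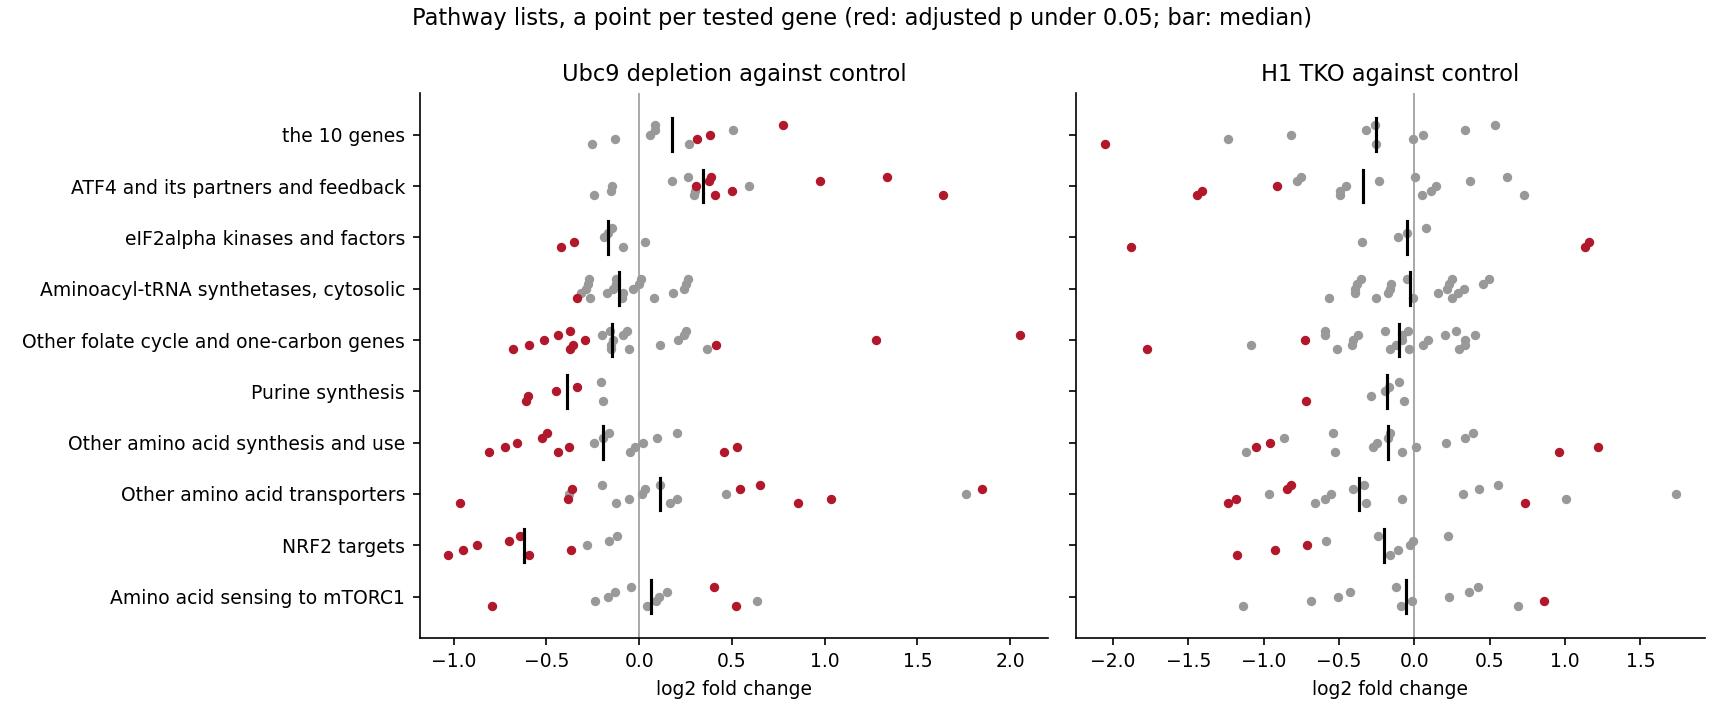
Log2 fold changes of the members and of 9 companion gene lists in the Ubc9 comparison (left) and H1 comparison (right), a point for each tested gene, red where the adjusted p was under 0.05 in edgeR, with a bar at the median. After Ubc9 depletion the ATF4 list sits at a median of 0.34 and the NRF2 list at -0.62, with the 10 members between them at 0.18.

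Correlations among the members were mixed. With each comparison centred on its own mean, the Pearson correlation of a member's log2 CPM with the mean of the other 9 over the 8 libraries ran from -0.55 for Asns and -0.28 for Psph to 0.79 for Slc3a2 and 0.83 for Slc7a5, with Mthfd2 at 0.71. Among 9204 genes averaging 5 CPM or more in both comparisons, those most like the mean of the 10 were Apoa2 and Apoe, which encode apolipoproteins, Hsbp1, Dusp1, a phosphatase gene, and 2900011O08Rik. Their correlations were 0.99, 0.98, 0.98, 0.98 and 0.98. The libraries share batches and groups, so these values are descriptions.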

How the data were processed

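Counts per gene were deposited by the authors, with a table for each comparison, and were analysed as they stand. The submitters' processing notes name cutadapt, STAR, HTSeq and DESeq2, and mm10. What each tool did, its version, the annotation and the strand setting were not given in the sources used here. Kits were ScriptSeq v2 (Ubc9) and Lexogen SENSE V2 (H1), per the labels' protocols.

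edgeR 4.0.16 in R 4.3.3 was run on the 4 libraries of each comparison: genes were kept by filterByExpr (count 10, total 15), libraries scaled by TMM, genes tested by quasi-likelihood, and p-values adjusted by Benjamini-Hochberg over all genes tested, with calls at 0.05. All 10 members passed the filter in both. SE is the standard error of the log2 fold change, and intervals are 95%. The interaction used all 8 libraries. The scripts were tested on simulated data. Alternatives were GC offsets, a replicate block, RLE factors, DESeq2 1.42.0, library totals alone, all 8 libraries in 1 fit, no filter, and leaving out each library. Positions, exonic length and GC content came from GENCODE M21 (GRCm38), in which 23384 of 24421 symbols were found and 669 more under an earlier symbol.

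The members and gene lists were chosen with earlier results of these data known. Named genes are the members, the targeted H1 genes, Atf4, up to 4 genes of each list per comparison with the lowest adjusted p among those called, and the 5 genes most like the members' mean. Others are named where a result turned on them, after their values were seen. Some genes this rule names are not reported here. Between libraries of a group, chi-square per degree of freedom was 16.8 to 249, so none was a duplicate. Depth limits precision: 3 counts are 0.0292 to 0.0675 CPM, and this covers counting error only.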

Additional observations from a re-analysis of the deposited data

Results flagged for a closer look

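Mthfd2 differed between the comparisons: its log2 fold change after Ubc9 depletion minus that in H1 TKO cells was 2.42 (edgeR quasi-likelihood interaction test, adjusted p = 8.6e-05). It was higher in 2 of 2 depleted libraries and lower in 2 of 2 TKO libraries than in their controls. Its neighbours within 1 Mb on chromosome 6 had a median log2 fold change of -1.47 in H1 TKO cells and -0.03 after Ubc9 depletion.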

How the results depend on the processing

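Mthfd2 in H1 TKO cells, its interaction, and the direction of Psph and of Mthfd2 in both comparisons held under every alternative run. For the other 8 members the direction or the call moved under at least 1 alternative in at least 1 comparison, and the calls of Psph and Mthfd2 after Ubc9 depletion were lost under some, as given with them. The cause was not tested. Members called higher after Ubc9 depletion numbered 3, and 1 with DESeq2, 7 with library totals alone, 1 with all 8 libraries in 1 fit and 0 with GC offsets. They ranged from 1 to 4 when 1 library was left out, and members called lower from 0 to 1. For H1 TKO cells 0 were called higher and 1 lower. The higher count was 1 with all 8 libraries and 1 with GC offsets from genes of at least 5 CPM, a setting chosen after seeing the data. The lower count was 3 with DESeq2, without a filter, with GC offsets of either kind and with the replicate block, and 2 with library totals alone and with all 8 libraries. Leaving out 1 library gave 0 to 2 higher and 1 to 4 lower. The interaction called 1 member higher, 3 with library totals alone, 3 with GC offsets from genes of at least 5 CPM, 2 with the replicate block, and 1 to 3 when 1 library was left out.

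Over all genes, 3479 were higher and 2467 lower after Ubc9 depletion. The counts were 1100 and 483 with all 8 libraries, 3983 and 1084 with library totals alone, and 2285 and 3351 with GC offsets. Leaving out 1 library gave 1230 to 8428 higher and 795 to 4610 lower. In H1 TKO cells 1271 were higher and 1247 lower. These were 2205 and 2158 with all 8 libraries, 2212 and 2906 with GC offsets, 2534 and 2389 with GC offsets from genes of at least 5 CPM, and 1895 lower without a filter. Leaving out 1 library gave 617 to 3994 higher and 488 to 4038 lower. The median log2 fold change of all genes after Ubc9 depletion, 0.06, was 0.25 with library totals, -0.34 with GC offsets, 0.44 in DESeq2 and 0.47 without a filter, the latter pair over 23556 genes. The median of the 10 members, 0.18, was -0.19 with GC offsets.

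Signs turned for several members, most widely for Slc7a11. With GC offsets in the Ubc9 comparison, Phgdh was at -0.092, Psat1 at -0.31, Asns at -0.28, Slc7a5 at -0.29 and Slc3a2 at -0.10. These offsets were not centred, and the median of all genes under them was -0.34. With the offsets from genes of at least 5 CPM, which were centred, the same genes were at 0.34, 0.056, 0.080, 0.11 and 0.29. Psat1 was at -0.00128 in DESeq2, and Shmt2 at 0.064 with library totals alone. When 1 library was left out, the values after Ubc9 depletion ran from -0.034 to 0.10 for Psat1, from -0.022 to 0.13 for Asns, from -1.08 to 1.16 for Slc7a11 and from -0.11 to 0.20 for Slc7a5. In H1 TKO cells Psat1 was at -0.019 with library totals alone and at -0.068 with GC offsets. Left-out libraries gave -0.12 to 0.11 for Phgdh, -0.059 to 0.19 for Psat1 and -0.64 to 0.094 for Shmt2. In the interaction, library totals alone gave 0.27 for Psat1, 0.28 for Mthfd1l and 0.021 for Asns, and GC offsets from genes of at least 5 CPM gave 0.029 for Mthfd1l. Left-out libraries gave -0.14 to 0.051 for Psat1, -0.24 to 0.44 for Shmt2 and -0.14 to 0.069 for Mthfd1l.

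Replicate numbers did not pair the samples: with 2 numbers a group, the correlation of same-numbered deviations was 0.017 for the Ubc9 libraries and 0.056 for those of H1. With the replicate block all genes called numbered 3160 higher and 2643 lower after Ubc9 depletion, and 1732 and 1729 in H1 TKO cells. A lone library was assumed to vary like the pair of the other group. Slc7a11, on 42 to 341 counts, was the member limited most by depth.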
